A study of Mus musculus with 16 samples.

Results

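Chemokines are small proteins that guide leukocytes through tissue, and 59 genes for chemokines and their receptors are described here in RNA-seq data of mouse bone endothelial cells (ECs). They were taken by gene symbol: every Ccl and Cxcl gene with a number, Cx3cl1, the Ccr and Cxcr receptors, Cx3cr1 and the atypical receptors Ackr1 to Ackr4, with Cxcl12 and Cxcr4 left aside. Chemokines with other symbols, such as the platelet chemokines Pf4 and Ppbp, are not among them. All 59 were found among the 38926 genes of the bmEC and mpEC table and of the Lats2 table, and 55 among the 21603 genes of the ECKO files. Ackr1 stands in both tables under its older name Darc.

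Endothelium meets chemokines in several ways. ECs make chemokines themselves, hold them on heparan sulfate chains at the cell surface so that rolling leukocytes can read them, and carry atypical receptors, which bind chemokines without the usual G protein signal and so transport, store or clear them. Ackr1, the Duffy antigen receptor, is known from venular endothelium and from red cell precursors, Ackr2 clears inflammatory CC chemokines, and Ackr3 binds Cxcl11 and Cxcl12. The classical receptors Ccr1, Ccr2, Cxcr2 and their relatives are known mainly from leukocytes. A transcript measured in a sorted population may therefore come from ECs or from blood cells that were sorted with them, and in such bulk samples fewer cells of a type and less RNA per cell cannot be told apart.

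The 16 libraries fall into 3 comparisons, all of C57BL/6 background. The first set 3 libraries of metaphyseal ECs (mpECs) against 3 libraries of ECs taken from the marrow cavity of the diaphysis (bmECs), sorted from wild-type 3-week-old Cdh5-mT/nG mice, whose ECs carry a membrane mTomato and a nuclear GFP. The next set 3 control libraries (Yap1flx/flx; Wwtr1flx/flx, Cdh5CreERT2 negative) against 3 libraries labelled ECKO (the same floxed alleles, Cdh5CreERT2 positive), all from postnatal day 21, where Wwtr1 is the gene of Taz. The last set 2 Lats2 control libraries (Lats2flx/flx, Cdh5CreERT2 negative) against 2 Lats2 cKO libraries (Lats2flx/flx, Cdh5CreERT2 positive), of 3-week-old mice by the study's methods. Cdh5CreERT2 is a recombinase that works in endothelium once tamoxifen has been given, which the methods place soon after birth, so that Cre-negative controls and Cre-positive mice carry the same floxed alleles. Animals were combined irrespective of sex. The methods state biological triplicates and littermate controls for the mutants, while the Lats2 groups held 2 libraries each. Nothing in the labels says that replicates came from separate animals, so p-values measure the spread between these libraries.

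Levels are given in FPKM, which divides a gene's fragments by its length and by the depth of the library, and each comparison was tested within its own table with limma on log2(FPKM + 1). Genes whose mean over the libraries reached 1 FPKM were tested, and their p-values were two-sided and adjusted over all of them after Benjamini and Hochberg. A member was called at an adjusted p-value under 0.05. Fold changes named as log2 are on the log2(FPKM + 1) scale, which understates changes of low genes, and errors of means are SDs. Reads recovered from the values numbered 11591507 to 15480007 per library for mpECs and bmECs, 4886002 to 7166587 for ECKO and its controls and 4886435 to 7345442 for Lats2, so 1 read in a gene of 2 kb was worth 0.0405 to 0.0608, 0.0726 to 0.107 and 0.0841 to 0.132 FPKM. The 10 endothelial markers were present in every library. Other cells were present too: the 11 neutrophil markers summed to 9830.0 to 28795 FPKM in the mpEC and bmEC libraries. The 8 B cell markers summed to 267 to 322 FPKM in the controls of the ECKO comparison and 223 to 227 FPKM in the libraries labelled ECKO.

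Of the targeted genes, Yap1 was at 1.07, 1.62 and 0.995 FPKM in the controls and at 1.43, 1.03 and 0.989 FPKM in the libraries labelled ECKO. Wwtr1 was at 10.01, 9.88 and 10.3 FPKM in the controls and at 15.3, 19.6 and 19.5 FPKM in the libraries labelled ECKO, a log2 change of 0.78 ± 0.12 (SE, adjusted p = 0.0272). Yap1 overlapped between the groups (log2 change -0.04, adjusted p = 0.934) and Wwtr1 was higher. The Yap1 and Taz target Ccn2 was at 12, 11.7 and 22.4 FPKM in the controls and at 16.2, 4.78 and 5.91 FPKM in the libraries labelled ECKO (adjusted p = 0.282). Their target Ccn1 went the other way, with a mean of 14.1 FPKM in the controls and 19.9 FPKM in the libraries labelled ECKO. Its groups overlapped (log2 change 0.46, adjusted p = 0.204). Neither targeted gene passed the test as lower, so every direction drawn from those libraries goes by their label alone. The study's own quantitative PCR of mutant bone ECs gave lower Yap1 and Wwtr1 transcripts. Lats2 was at 23.4 and 24.0 FPKM in its controls and at 19.2 and 19.2 FPKM in Lats2 cKO (adjusted p = 0.125). A gene-level value covers exons that the floxed deletion need not remove. Ccn1 was at 28.3 and 44.3 FPKM in Lats2 control and at 316 and 537 FPKM in Lats2 cKO (adjusted p = 0.00808). Ccn2 was at 68.3 and 47.1 FPKM in Lats2 control and at 264 and 469 FPKM in Lats2 cKO (adjusted p = 0.0113).

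The genes lie together on few chromosomes. Of the 58 with coordinates in GENCODE M21 of GRCm38, 41 fell into 10 runs with gaps under 500000 bases, and 14 lay on chromosome 11. One run at chr11:82035571-82305690 holds the monocyte chemoattractants Ccl2, Ccl7, Ccl12 and Ccl8 with Ccl11 and Ccl1, and a neighbouring run at chr11:83525778-83664683 holds Ccl5, Ccl9, Ccl6, Ccl3 and Ccl4. The ligands of Cxcr2, namely Cxcl5, Cxcl3, Cxcl15, Cxcl1 and Cxcl2, lie at chr5:90759360-90905938, and the ligands of Cxcr3, Cxcl9, Cxcl10 and Cxcl11, lie at chr5:92321347-92365485. Cxcl11 is classed as a polymorphic pseudogene in this annotation, so its transcript need not give a working ligand. Ackr1 lies at chr1:173331886-173333750 on the minus strand, where 25.7% of its exon bases are shared with Cadm3 on the same strand.

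The stretches before the starts of Cxcl1, Cxcl2, Cxcl10 and Cxcl9 are shown because the first pair was higher together in the libraries labelled ECKO and Cxcl10 and Cxcl9 lie side by side but did not pass the test together in any comparison. Each runs 5′ to 3′ on the gene's strand from 250 to 31 bases before the RefSeq start, in build GRCm38.p6, and capitals mark the letters of a motif.
Cxcl1, chr5:90890995-90891214, plus strand: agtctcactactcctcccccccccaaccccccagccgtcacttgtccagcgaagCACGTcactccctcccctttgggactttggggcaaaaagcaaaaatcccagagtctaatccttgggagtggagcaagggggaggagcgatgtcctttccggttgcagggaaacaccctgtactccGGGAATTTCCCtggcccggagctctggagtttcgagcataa
Cxcl2, chr5:90903649-90903868, plus strand: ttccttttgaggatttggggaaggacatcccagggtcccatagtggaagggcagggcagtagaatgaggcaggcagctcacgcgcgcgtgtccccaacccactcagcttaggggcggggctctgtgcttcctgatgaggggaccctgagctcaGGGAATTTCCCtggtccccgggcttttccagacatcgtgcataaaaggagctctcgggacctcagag
Cxcl10, chr5:92348920-92349139, minus strand: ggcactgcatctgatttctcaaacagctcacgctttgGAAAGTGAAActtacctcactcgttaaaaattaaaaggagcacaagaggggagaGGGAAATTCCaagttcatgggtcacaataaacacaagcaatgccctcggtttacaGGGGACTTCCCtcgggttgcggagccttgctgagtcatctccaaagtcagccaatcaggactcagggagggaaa
Cxcl9, chr5:92328110-92328329, minus strand: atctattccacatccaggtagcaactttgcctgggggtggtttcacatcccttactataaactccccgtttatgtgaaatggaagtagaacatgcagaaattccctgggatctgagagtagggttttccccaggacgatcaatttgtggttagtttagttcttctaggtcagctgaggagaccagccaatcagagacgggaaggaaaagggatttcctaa
Motifs were searched on both strands: NF-kB, the interferon-stimulated response element, the gamma-activated site TTCNNNGAA, the TEAD motif GGAATG and the hypoxia-inducible factor motif ACGTG. Cxcl1 and Cxcl2 carry the same run GGGAATTTCCC, in which a match to NF-kB on each strand overlaps the other, ending 61 and 87 bases before the start. Cxcl1 also holds CACGT, the hypoxia motif read from the other strand. Cxcl10 holds GAAAGTGAAA, GGGAAATTCC and GGGGACTTCCC, and Cxcl9 holds none of the 5 motifs in this window. Of the 37 members with a single RefSeq entry, 9 held the NF-kB letters (24.3%), beside 6.04% of 22862 promoters of the same length, and 4 held the TEAD letters (10.8%), beside 11.4%. The response element stood in 3 of the 37 (8.11%, beside 2.79%), the gamma-activated site in 2 (5.41%, beside 6.43%) and the hypoxia motif in 5 (13.5%, beside 14.2%). A match is a run of letters and not a bound site.

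The atypical receptor Ackr1 was 5.30-fold higher in bmECs than in mpECs and was the most abundant member in all 6 libraries. The Cxcr3 ligand Cxcl9 and the membrane-bound chemokine Cxcl16 were also higher in bmECs, while the monocyte chemoattractant Ccl12, the neutrophil chemoattractant Cxcl2 and the atypical receptor Ackr3 were higher in mpECs. Of the 59 members, 48 were above 0 FPKM in at least 1 of the libraries and 27 reached the mean of 1 FPKM and were tested. Of these, 12 were called, 5 higher and 7 lower in bmECs, where 23.5% of the 11422 genes tested were called, 13% higher and 10.5% lower. The groups did not overlap for 14 of the 27, beside 41.3% of all genes, and the median log2 change was -0.28 over the members and -0.00068 over all genes.

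**Figure D1:**
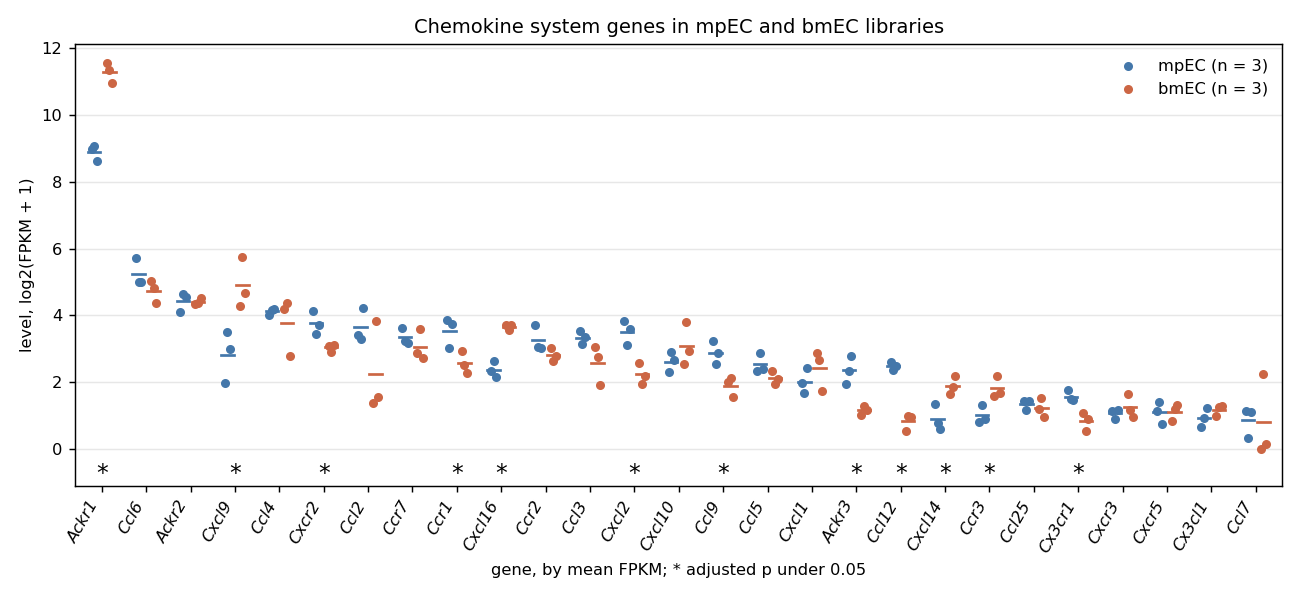
Level of the 27 tested chemokine and receptor genes in mpECs and bmECs, as log2(FPKM + 1) on the vertical axis, with the genes on the horizontal axis in order of their mean. Points are single libraries (3 per group), short lines are group means, and a star marks an adjusted p-value under 0.05; Ackr1 stands far above the other genes in both groups.

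Among the atypical receptors, Ackr1 was at 506, 533 and 392 FPKM in mpECs and at 3006, 2590.0 and 1989.6 FPKM in bmECs. The lowest bmEC library was well above the highest mpEC library, and the means were 477 ± 75.2 and 2529 ± 511 FPKM (log2 change 2.40 ± 0.18 SE, adjusted p = 9.17e-05). Ackr1 made up 65.9% to 74.3% of the summed FPKM of all members in mpECs and 91.8% to 94.5% in bmECs. The erythroid markers, which belong to the other cells known to carry Ackr1, summed to 28251 to 52878 FPKM in mpECs and 42478 to 60395 FPKM in bmECs, 0 of 7 passed the test, and their part in the result was not tested. Ackr3 went the other way, with 2.88, 4.04 and 5.84 FPKM in mpECs and 1.02, 1.45 and 1.24 FPKM in bmECs (log2 change -1.20 ± 0.21 SE, adjusted p = 0.00503). Ackr2 was at 16.05, 23.9 and 22.6 FPKM in mpECs and 19.5, 19.5 and 22.1 FPKM in bmECs, and these overlapped (log2 change -0.01 ± 0.15 SE). Ackr4, which clears the homing chemokines, stayed at or under 0.349 FPKM in all 6 libraries.

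**Figure D2:**
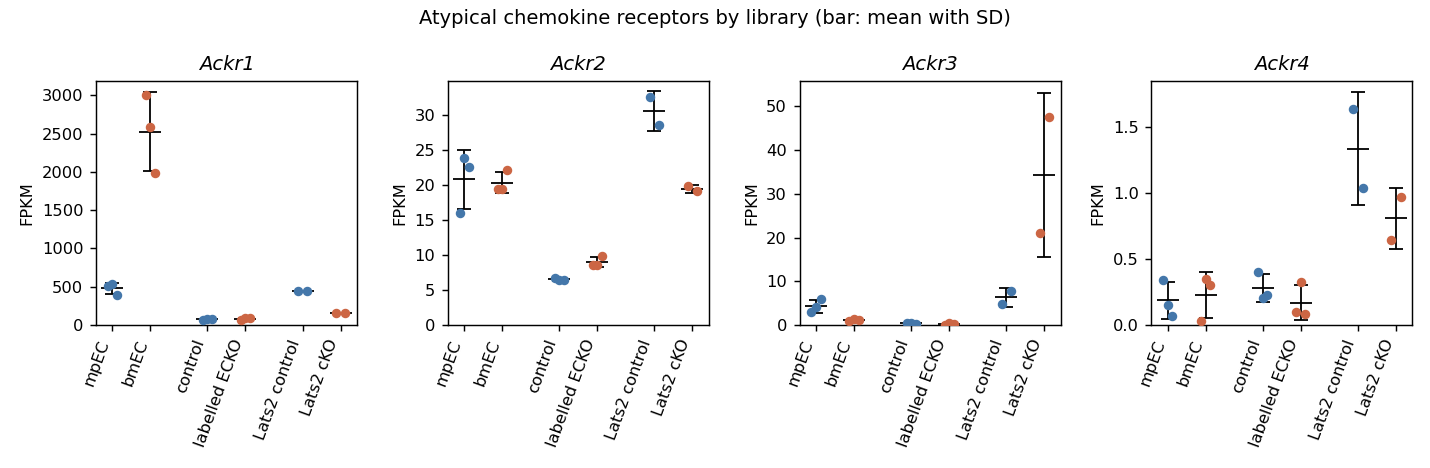
FPKM of Ackr1, Ackr2, Ackr3 and Ackr4 in each library of the 6 groups, each on a linear axis of its own that starts at 0. Points are libraries (3 per group, 2 per Lats2 group), and the black bar gives the mean with its SD; the 3 tables were scaled separately, so heights are comparable within each neighbouring pair of groups. Ackr1 is higher in bmECs (1989.6 to 3006 FPKM) than in mpECs, and Ackr3 is higher in Lats2 cKO (21.1 and 47.6 FPKM) than in Lats2 control.

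The Cxcr3 ligands call in activated T cells. Cxcl9 was at 2.90, 10.3 and 6.91 FPKM in mpECs and at 18.4, 53.1 and 24.2 FPKM in bmECs, a 4.77-fold difference between the means with no overlap (log2 change 2.09 ± 0.46 SE, adjusted p = 0.0137). Its neighbour Cxcl10 was at 3.89, 6.46 and 5.28 FPKM in mpECs and at 4.80, 12.8 and 6.71 FPKM in bmECs, which overlapped (adjusted p = 0.301). For both genes bmEC replicate 2 was the highest library. Cxcl11 stayed at or under 0.111 FPKM.

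Cxcl16 and Cx3cl1 are made as membrane proteins that can both anchor leukocytes and be shed. Cxcl16 was at 4.07, 5.14 and 3.44 FPKM in mpECs and at 12.1, 10.7 and 12.1 FPKM in bmECs, a 2.76-fold difference (log2 change 1.29 ± 0.14 SE, adjusted p = 0.000462). The bmEC libraries lay close together here. Cx3cl1 was low throughout, at 0.589, 0.892 and 1.33 FPKM in mpECs and 0.983, 1.37 and 1.42 FPKM in bmECs (adjusted p = 0.397). In Cxcl16, 18.3% of exon bases overlap Zmynd15 on the other strand, and whether reads were counted by strand is not given in the sources used here.

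The ligands of Cxcr2, which draw neutrophils, did not move as one. Cxcl2 was at 13.2, 7.70 and 10.9 FPKM in mpECs and at 4.96, 2.81 and 3.55 FPKM in bmECs (log2 change -1.28 ± 0.22 SE, adjusted p = 0.00451). Cxcl1, its neighbour in the same run, was at 2.89, 2.21 and 4.32 FPKM in mpECs and at 6.25, 5.33 and 2.32 FPKM in bmECs and overlapped (adjusted p = 0.391). Cxcl3 and Cxcl5 stayed at or under 0.661 FPKM, and Cxcl15 was listed at 0 in all libraries.

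Of the monocyte chemoattractants, Ccl12 was at 5.12, 4.11 and 4.6 FPKM in mpECs and at 0.453, 0.984 and 0.949 FPKM in bmECs, 5.80-fold lower (log2 change -1.65 ± 0.16 SE, adjusted p = 0.00031). It rested on 2 to 34 recovered reads per library. Ccl2 was at 9.67, 8.72 and 17.6 FPKM in mpECs and at 1.60, 13.1 and 1.94 FPKM in bmECs, so that bmEC replicate 2 alone lay in the range of mpECs (adjusted p = 0.141). Without that library the log2 change of Ccl2 was -2.17 (adjusted p = 0.0027). Of the 15 other fits at the same threshold this was the only 1 that called Ccl2, and its adjusted p reached 0.338 among them. Ccl7 was at 1.21, 0.250 and 1.16 FPKM in mpECs and at 0, 3.70 and 0.106 FPKM in bmECs, again highest in bmEC replicate 2 (adjusted p = 0.95). Ccl8 had too low a mean for the test, with 0.634, 0.785 and 0.806 FPKM in mpECs and 0, 1.03 and 0.499 FPKM in bmECs.

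The inflammatory CC chemokines Ccl3, Ccl4, Ccl5, Ccl6 and Ccl9, made by many leukocytes, had lower means in bmECs, and 1 of the 5 passed the test. Ccl9 was at 8.40, 4.81 and 6.26 FPKM in mpECs and at 2.99, 3.37 and 1.95 FPKM in bmECs (log2 change -0.98 ± 0.21 SE, adjusted p = 0.0126). Ccl3 was at 10.5, 7.85 and 9.14 FPKM in mpECs and at 7.30, 5.80 and 2.77 FPKM in bmECs, with no overlap but an adjusted p of 0.0808. Ccl6, at 51.8, 31.3 and 31.3 FPKM against 31.5, 27.5 and 19.5 FPKM, was the most abundant chemokine among the members in 4 of the 6 libraries, with Cxcl9 above it in bmEC replicate 2 and replicate 3. Pf4, a platelet chemokine outside the rule, was above it in all 6, at 59.0 to 254 FPKM. Ccl4 was at 15.2, 17.0 and 17.3 FPKM in mpECs and at 17.3, 19.5 and 5.92 FPKM in bmECs. Ccl5 was at 4.05, 6.37 and 4.29 FPKM in mpECs and at 4.05, 2.86 and 3.27 FPKM in bmECs. None of these last 3 passed the test.

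Of the other ligands, Cxcl14 was at 1.55, 0.715 and 0.508 FPKM in mpECs and at 2.13, 2.61 and 3.54 FPKM in bmECs (log2 change 0.99 ± 0.23 SE, adjusted p = 0.0171). Ccl25, a thymus and gut chemokine, was at 1.70, 1.24 and 1.70 FPKM in mpECs and 1.27, 1.90 and 0.955 FPKM in bmECs. Ccl21a reached 4.50 FPKM in bmEC replicate 2 and at most 0.372 FPKM in the other libraries. Its near-identical copies Ccl21b and Ccl21c were listed at 0. How reads that match several copies were counted is not given in the sources used here. Ccl24, a ligand of Ccr3, was at 0.126, 0 and 0 FPKM in mpECs and at 1.23, 0.738 and 1.19 FPKM in bmECs, below the mean needed for the test.

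The classical receptors moved both ways. Ccr3, known from eosinophils and mast cells, was at 0.742, 1.5 and 0.849 FPKM in mpECs and at 2.00, 3.52 and 2.18 FPKM in bmECs (log2 change 0.81 ± 0.21 SE, adjusted p = 0.0269). Ccr1 was at 13.7, 7.08 and 12.3 FPKM in mpECs and at 6.70, 4.71 and 3.84 FPKM in bmECs (log2 change -0.96 ± 0.25 SE, adjusted p = 0.0274). Cxcr2, the neutrophil receptor, was at 16.5, 9.82 and 12.1 FPKM in mpECs and at 7.55, 6.54 and 7.71 FPKM in bmECs (log2 change -0.71 ± 0.17 SE, adjusted p = 0.0202). Cx3cr1, the monocyte receptor for Cx3cl1, was at 2.38, 1.79 and 1.76 FPKM in mpECs and at 1.10, 0.452 and 0.840 FPKM in bmECs (log2 change -0.74 ± 0.18 SE, adjusted p = 0.02). For all 4 receptors the groups did not overlap. The neutrophil markers summed to 12089 to 28795 FPKM in mpECs and 9830.0 to 14292 FPKM in bmECs, with 1 of 11 called and lower. Their median log2 change was -0.67, beside -0.00068 over all genes. The 12 macrophage and monocyte markers summed to 1319.8 to 2296 FPKM in mpECs and 1171 to 1519 FPKM in bmECs. Of these, 11 were tested, with 1 higher, 1 lower and a median log2 change of -0.23. No marker of either list was at 0 in any library. Other lists moved more: the osteoblast markers summed to 247 to 975 FPKM in mpECs and 45.2 to 60.7 FPKM in bmECs, with 5 of 7 called and lower, and the osteoclast markers to 42.4 to 77.4 and 23.9 to 27.9 FPKM, with all 3 tested called and lower. The sorting stress markers summed to 909 to 1350.2 FPKM in mpECs and to 3046, 3601 and 1092 FPKM in bmEC replicates 1, 2 and 3, with 3 of 11 called and higher. Only bmEC replicate 3 lay in the range of mpECs. The part of these cells and of the sort in the members' values was not tested.

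Of the receptors that did not pass, Ccr2, the receptor of Ccl2, was at 12, 7.31 and 7.09 FPKM in mpECs and at 7.05, 5.19 and 5.90 FPKM in bmECs (adjusted p = 0.143). The homing receptor Ccr7 was at 11.3, 8.36 and 8.02 FPKM in mpECs and at 6.27, 11.2 and 5.63 FPKM in bmECs. Cxcr3 was at 1.22, 0.869 and 1.25 FPKM in mpECs and at 2.11, 1.22 and 0.933 FPKM in bmECs. Cxcr5, a B cell receptor, was at 1.2, 1.63 and 0.693 FPKM in mpECs and at 0.775, 1.27 and 1.5 FPKM in bmECs. The groups overlapped for these last 3. A further 18 members were above 0 but under 1 FPKM in every library, at most 0.718 FPKM, and 11 were listed at 0.

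Over the 15 other fits of this comparison that kept the same threshold, the calls of Ackr1, Cxcl16, Cxcl2 and Cxcl9 stood in all 15, and those of Ccl12, Ackr3 and Ccl9 in all 14 in which they were tested. The calls of Ccr1, Ccr3, Cxcr2, Cx3cr1 and Cxcl14 were lost in 2 to 5 of the 14 or 15 fits. With no filter on low values Ccr1, Ccr3, Cxcr2 and Cxcl14 were not called (adjusted p = 0.0525 to 0.0763). Cxcr2 was also lost without mpEC replicate 3 or bmEC replicate 1 or 2, where its adjusted p reached 0.0683, and Cxcl14 without mpEC replicate 2 or 3 or bmEC replicate 3, where it reached 0.0593. Ccr1 was lost without mpEC replicate 1 or 3 or bmEC replicate 2 or 3 (up to 0.0941), Ccr3 without mpEC replicate 1 or 3 or bmEC replicate 2 (up to 0.0881), and Cx3cr1 without mpEC replicate 1 or bmEC replicate 2 (up to 0.0599).

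In the libraries labelled ECKO, the paired neutrophil chemoattractants Cxcl1 and Cxcl2 were higher than in controls, and no other member passed the test. Cxcl1 was 4.41-fold and Cxcl2 1.56-fold higher. Of the 55 members listed, 44 were above 0 FPKM and 23 were tested, and 2 of these were called, both higher, where 1.31% of the 11320 genes tested were called, 0.883% higher and 0.424% lower. The groups did not overlap for 4 of the 23, beside 23.6% of all genes, and the median log2 change was -0.07 over the members and -0.0047 over all genes.

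**Figure D3:**
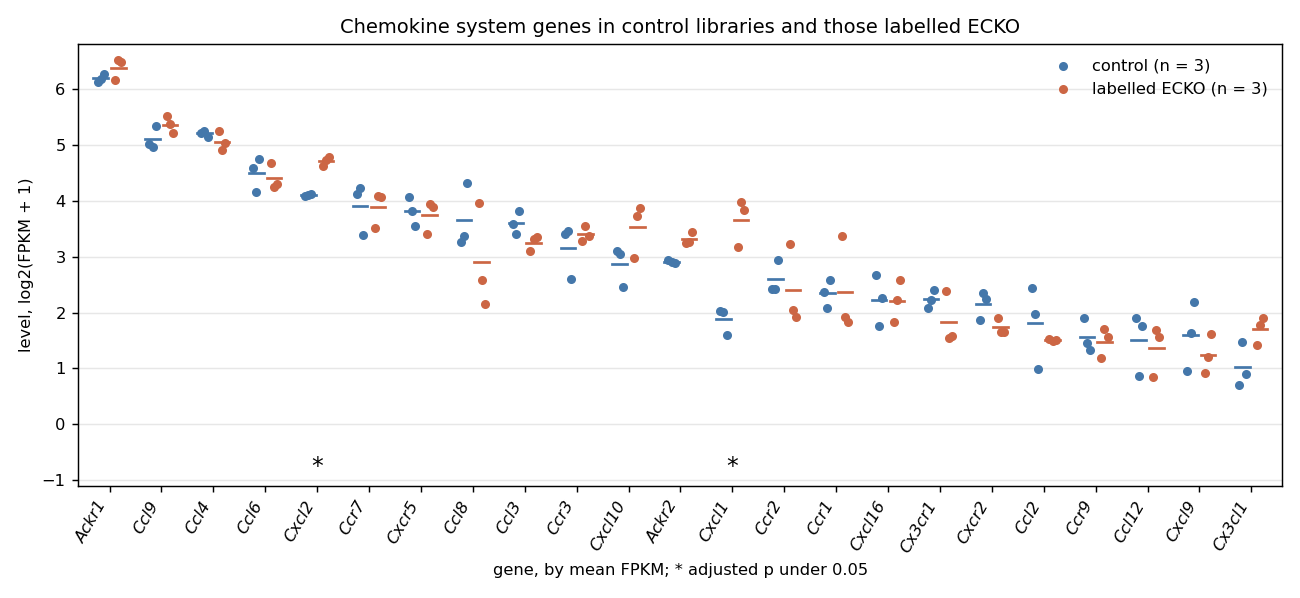
Level of the 23 tested chemokine and receptor genes in the 3 control libraries and the 3 libraries labelled ECKO, as log2(FPKM + 1), with the genes in order of their mean. Points are libraries, short lines are group means, and a star marks an adjusted p-value under 0.05, which Cxcl2 and Cxcl1 carry.

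Cxcl1 was at 3.10, 3.05 and 2.03 FPKM in the controls and at 8.09, 14.7 and 13.3 FPKM in the libraries labelled ECKO (log2 change 1.78 ± 0.21 SE, adjusted p = 0.0117). The lowest of the libraries labelled ECKO was above the highest control. Cxcl2 was at 16, 16.3 and 16.4 FPKM in the controls and at 23.6, 25.6 and 26.6 FPKM in the libraries labelled ECKO (log2 change 0.61 ± 0.09 SE, adjusted p = 0.0305). These values rested on 24 to 161 recovered reads per library for Cxcl1 and 157 to 312 for Cxcl2. Both calls were lost with no filter on low values (adjusted p = 0.0679 for each), and that of Cxcl2 without the trend (0.067) and with a replicate block (0.0734). Both were also lost without the library labelled ECKO replicate 2 (adjusted p = 0.0711 and 0.184) or replicate 3 (0.0983 and 0.156), and that of Cxcl2 also without control replicate 2 (0.0752) or 3 (0.0768), while the log2 changes with 1 library left out were 1.63 to 2.02 for Cxcl1 and 0.57 to 0.65 for Cxcl2. Cxcl1 and Cxcl2 are both known to be induced with the immediate early genes. The 12 markers of sorting stress are immediate early and heat shock genes. They summed to 2175 to 2283 FPKM in the controls and 2307 to 2832 FPKM in the libraries labelled ECKO. The heat shock gene Hspa1b was the 1 that passed the test, and it was higher. The part of these markers in the result was not tested.

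Of the remaining ligands above 1 FPKM, Cxcl10 was at 7.62, 7.26 and 4.46 FPKM in the controls and at 6.90, 12.3 and 13.7 FPKM in the libraries labelled ECKO (adjusted p = 0.191). Without the library labelled ECKO replicate 1 the log2 change was 0.93 (adjusted p = 0.0479). Of the 15 other fits at the same threshold this was the only 1 that called Cxcl10, and its adjusted p reached 0.490 among them. Cx3cl1 was at 0.625, 1.76 and 0.871 FPKM in the controls and at 1.67, 2.44 and 2.75 FPKM in the libraries labelled ECKO, which overlapped in 1 library of each (adjusted p = 0.152). Cxcl9 was at 0.943, 2.10 and 3.56 FPKM in the controls and at 0.885, 1.30 and 2.06 FPKM in the libraries labelled ECKO. Cxcl16 was at 5.37, 2.40 and 3.80 FPKM against 2.55, 3.68 and 5.01 FPKM. The groups overlapped for both.

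Ccl4 and Ccl9 were the most abundant chemokines among the members in this table. Pf4, a platelet chemokine outside the rule, was at 113 to 131 FPKM in the controls and 125 to 144 FPKM in the libraries labelled ECKO, above both. Ccl4 was at 36.4, 37.4 and 34.5 FPKM in the controls and at 37.0, 29.0 and 31.7 FPKM in the libraries labelled ECKO. Ccl9 was at 31.7, 30.3 and 39.7 FPKM in the controls and at 44.7, 40.6 and 36.2 FPKM in the libraries labelled ECKO. Neither passed the test (adjusted p = 0.506 and 0.322). Ccl6 was at 23.1, 17.0 and 25.9 FPKM against 24.7, 18.1 and 18.7 FPKM. Ccl3 was at 11, 9.67 and 13.1 FPKM against 7.55, 8.93 and 9.19 FPKM, with no overlap and an adjusted p of 0.196. Ccl5 was listed at 0 in 5 of the 6 libraries and at 0.550 FPKM in the sixth. The 12 macrophage and monocyte markers summed to 1706 to 2345 FPKM in the controls and 1621 to 1862 FPKM in the libraries labelled ECKO, and 0 of 12 passed the test. The part of these cells in the values of these ligands and of the monocyte chemoattractants below was not tested.

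The monocyte chemoattractants varied from library to library. Ccl8 was at 8.66, 9.38 and 19.0 FPKM in the controls and at 14.7, 5.02 and 3.44 FPKM in the libraries labelled ECKO. Ccl2 was at 4.44, 2.94 and 0.994 FPKM in the controls and at 1.88, 1.80 and 1.86 FPKM in the libraries labelled ECKO. Ccl12 was at 2.75, 0.812 and 2.41 FPKM against 0.798, 2.23 and 1.97 FPKM. Their adjusted p-values were 0.381, 0.658 and 0.854. Ccl7 was at 1.05, 1.09 and 1.01 FPKM in the controls and at 0, 0.854 and 0.220 FPKM in the libraries labelled ECKO, below the mean needed for the test.

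The library labelled ECKO replicate 1 held the highest values of Ccr1 and Ccr2. Ccr1 was at 9.38 FPKM there, at 2.78 and 2.55 FPKM in the other libraries labelled ECKO and at 4.17, 3.23 and 4.96 FPKM in the controls. Ccr2 was at 8.41, 3.16 and 2.81 FPKM in the libraries labelled ECKO and at 4.38, 4.39 and 6.65 FPKM in the controls. The neutrophil markers summed to 4061 FPKM in this library, to 1739 and 1837 FPKM in the other libraries labelled ECKO and to 2202 to 2841 FPKM in the controls, with none of the 11 at 0 and their part in these values not tested. Without it the log2 change of Ccr1 was -0.47 in place of 0.03. Cx3cr1 was also highest in this library of its group, at 4.24, 1.92 and 1.98 FPKM, beside 3.21, 3.69 and 4.32 FPKM in the controls.

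The other receptors did not pass the test. Ccr7 was at 16.4, 17.8 and 9.47 FPKM in the controls and at 10.5, 16.1 and 15.8 FPKM in the libraries labelled ECKO, and Cxcr5 at 15.9, 13.2 and 10.7 FPKM against 9.56, 14.5 and 13.8 FPKM. Ccr3 was at 9.59, 10.1 and 5.08 FPKM against 8.77, 10.8 and 9.36 FPKM. Cxcr2 was at 2.63, 4.11 and 3.72 FPKM against 2.75, 2.14 and 2.14 FPKM. Ccr9, a gut-homing receptor, was at 2.73, 1.76 and 1.51 FPKM against 1.27, 2.25 and 1.94 FPKM. The groups overlapped for all 5.

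Ackr1 was at 68.8, 72.0 and 76.9 FPKM in the controls and at 70.6, 91.0 and 88.8 FPKM in the libraries labelled ECKO, and was again the most abundant member in each of the 6 libraries (adjusted p = 0.418). It held 22.5% to 28.0% of the members' summed FPKM. Ackr2 was at 6.74, 6.47 and 6.38 FPKM in the controls and at 8.54, 8.60 and 9.86 FPKM in the libraries labelled ECKO, with no overlap and an adjusted p of 0.0914 (log2 change 0.41 ± 0.11 SE). Ackr3 and Ackr4 stayed at or under 0.521 FPKM. The 10 endothelial markers summed to 554 to 563 FPKM in the controls and 646 to 755 FPKM in the libraries labelled ECKO. Their median log2 change was 0.36 and 0 of 10 passed the test. The part of this difference in the atypical receptor values was not tested. Of the members that reached 1 FPKM in at least 1 library without reaching that mean, Ccl17 was at 2.05, 0.283 and 0.945 FPKM in the controls and at 0 in the 3 libraries labelled ECKO. Ccl25 was at 1.74, 0.163 and 0.424 FPKM against 0.482, 0.256 and 0.264 FPKM. Ccl27a, which has near-identical copies, was at 1.15, 0.550 and 1.15 FPKM against 0.450, 1.22 and 0.370 FPKM. Cxcr3 was at 0.122, 1.01 and 0.933 FPKM against 0.866, 1.19 and 0.305 FPKM. A further 15 members stayed above 0 but under 1 FPKM in every library, at most 0.647 FPKM, and 11 were at 0.

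In Lats2 cKO the monocyte chemoattractant Ccl2, the atypical receptor Ackr3 and the membrane-bound Cx3cl1 were higher than in Lats2 control, and the atypical receptors Ackr1 and Ackr2, the Cxcr3 ligand Cxcl10 and the membrane-bound Cxcl16 were lower. Ccl2 was 13.7-fold and Ackr3 5.46-fold higher, and Cxcl10 was 7.95-fold and Ackr1 2.85-fold lower. Of the 59 members, 41 were above 0 FPKM and 22 were tested. Of these 7 were called, 3 higher and 4 lower, where 21.8% of the 12453 genes tested were called, 11.8% higher and 9.98% lower. The groups did not overlap for 17 of the 22, beside 68.2% of all genes, which 2 against 2 libraries make common, and the median log2 change was -0.62 over the members and -0.0033 over all genes.

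**Figure D4:**
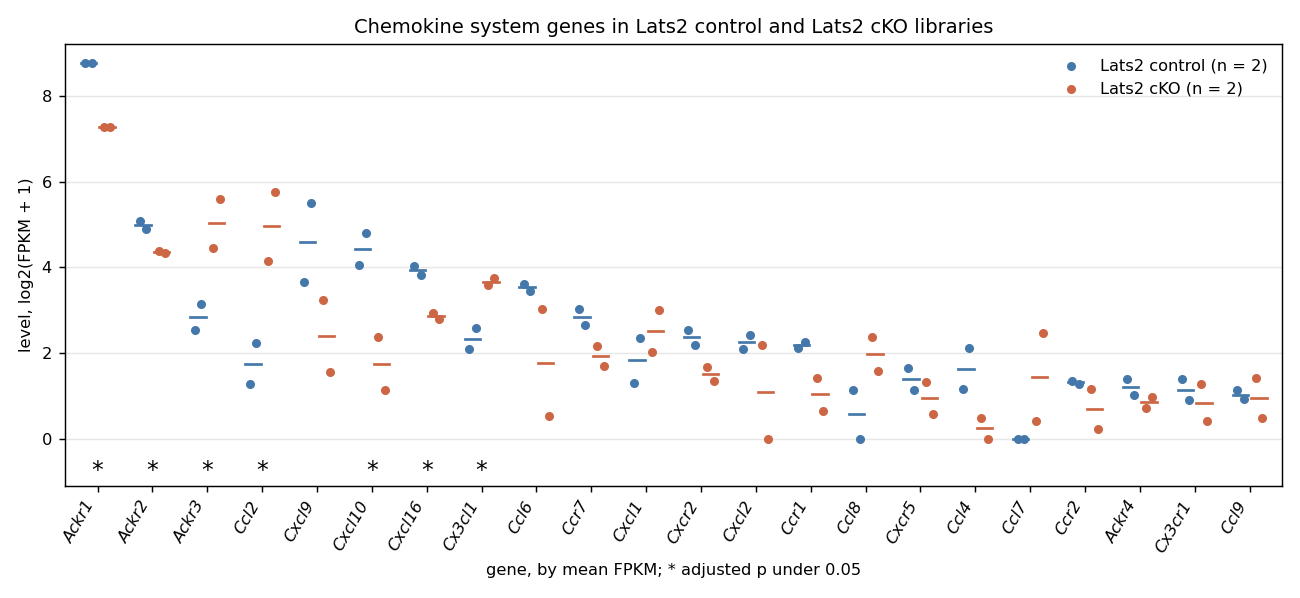
Level of the 22 tested chemokine and receptor genes in the 2 Lats2 control and 2 Lats2 cKO libraries, as log2(FPKM + 1), with the genes in order of their mean. Points are libraries, short lines are group means, and a star marks an adjusted p-value under 0.05; Ackr1 is lower and Ackr3, Ccl2 and Cx3cl1 are higher in Lats2 cKO.

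All these calls rest on 2 libraries a group. Without Lats2 control replicate 1 or replicate 2, limma called none of the members and 0 of all genes, with 2724 and 2879 genes at an unadjusted p under 0.05, and the lone control was then assumed to vary like the other group. Without Lats2 cKO replicate 2 the call of Ackr1 stood alone (adjusted p = 0.0347), and without Lats2 cKO replicate 1 those of Ackr1, Ackr3, Ccl2, Cxcl10 and Cxcl16 stood. Without Lats2 cKO replicate 2 the folds were 6.57 for Ccl2, 3.35 for Ackr3 and 5.11 for Cxcl10, and without replicate 1 they were 20.9, 7.57 and 17.96. With no filter on low values Ackr2, Ackr3, Ccl2 and Cxcl10 were not called (adjusted p = 0.0503 to 0.059).

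Among the atypical receptors, Ackr1 was at 439 and 438 FPKM in Lats2 control and at 154 and 154 FPKM in Lats2 cKO (log2 change -1.51 ± 0.12 SE, adjusted p = 0.007). The 2 libraries of each group were nearly alike here. Its share of the members' summed FPKM was 76.6% and 71.2% in Lats2 control and 53.9% and 48.1% in Lats2 cKO. The erythroid markers summed to 2436 to 3669.6 FPKM in Lats2 control and 243 to 1395 FPKM in Lats2 cKO, with 1 of 7 called and lower, and their part in the result was not tested. Ackr2 was at 32.7 and 28.6 FPKM in Lats2 control and at 19.9 and 19.1 FPKM in Lats2 cKO (log2 change -0.62 ± 0.13 SE, adjusted p = 0.0284). Ackr3 was at 4.80 and 7.78 FPKM in Lats2 control and at 21.1 and 47.6 FPKM in Lats2 cKO (log2 change 2.20 ± 0.41 SE, adjusted p = 0.0239). Ackr4 was at 1.64 and 1.04 FPKM against 0.642 and 0.973 FPKM (adjusted p = 0.376). Ackr1 and Ackr2, known to bind inflammatory chemokines, were thus lower and Ackr3 was higher in the same libraries.

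Of the monocyte chemoattractants in the run on chromosome 11, Ccl2 was at 1.41 and 3.69 FPKM in Lats2 control and at 16.8 and 53.3 FPKM in Lats2 cKO (log2 change 3.21 ± 0.59 SE, adjusted p = 0.0228). Its neighbour Ccl7 was at 0 in both Lats2 control libraries and at 0.331 and 4.51 FPKM in Lats2 cKO, on at most 18 recovered reads (adjusted p = 0.189). Ccl8 was at 1.18 and 0 FPKM in Lats2 control and at 4.15 and 1.97 FPKM in Lats2 cKO (adjusted p = 0.0928). Ccl8 rested on at most 8 recovered reads. Ccl2, Ccl7 and Ccl8 lay higher in both Lats2 cKO libraries, where the groups did not overlap for 68.2% of all genes. Of them Ccl2 alone passed the test. Ccl12 of the same run was at 1.12 and 0 FPKM against 2.47 and 0.374 FPKM, below the mean needed for the test. The macrophage and monocyte markers, of cells known to make these chemokines too, summed to 748 and 644 FPKM in Lats2 control and to 378 and 116 FPKM in Lats2 cKO, with 2 of 10 called and lower (Mrc1 and Ly6c2). Most of the sum was Lyz2 and Mrc1, and C1qa, C1qb and C1qc went the other way, with C1qb at 4.99 and 1.08 FPKM in Lats2 control and at 11.4 and 6.65 FPKM in Lats2 cKO. Mrc1 was called higher in bmECs, as were 5 of the 6 sinusoidal markers, and all 6 of these were called lower in Lats2 cKO. The stromal and pericyte markers summed to 33.7 and 37.7 FPKM in Lats2 control and to 64.9 and 62.4 FPKM in Lats2 cKO, with Kitl and Rgs5 called and higher of 6 tested, and of the osteoclast markers Ctsk was called and higher. The part of these cells in the values of Ccl2, Ackr3 and Cx3cl1 was not tested.

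Cx3cl1 was at 3.25 and 4.99 FPKM in Lats2 control and at 10.9 and 12.5 FPKM in Lats2 cKO (log2 change 1.33 ± 0.21 SE, adjusted p = 0.0164). Cxcl16 was at 15.4 and 13.2 FPKM in Lats2 control and at 6.58 and 5.92 FPKM in Lats2 cKO (log2 change -1.08 ± 0.15 SE, adjusted p = 0.0129). The chemokines made as membrane proteins thus differed in opposite directions.

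Cxcl10 was at 15.7 and 27.0 FPKM in Lats2 control and at 4.18 and 1.19 FPKM in Lats2 cKO (log2 change -2.68 ± 0.46 SE, adjusted p = 0.0199). Cxcl9 was at 11.6 and 44.4 FPKM in Lats2 control and at 8.39 and 1.94 FPKM in Lats2 cKO, with no overlap but an adjusted p of 0.104. The controls were far apart for Cxcl9, and Lats2 cKO replicate 2 was the lower of its pair for both genes. Cxcl11 was at 0.0530 and 0.886 FPKM against 0.14 and 0 FPKM. The T and NK cell markers, of cells that respond to these ligands, summed to 6.35 to 8.99 FPKM in Lats2 control and 2.07 to 2.97 FPKM in Lats2 cKO. Nkg7 made up most of the control sum, at 5.26 and 3.25 FPKM against 0.604 and 0 FPKM, while Cd4 was at 0.199 and 0.0834 FPKM against 1.12 and 0.947 FPKM, and their part in the result was not tested.

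Of the ligands of Cxcr2, Cxcl1 was at 1.48 and 4.06 FPKM in Lats2 control and at 3.06 and 6.96 FPKM in Lats2 cKO, and Cxcl2 at 3.24 and 4.31 FPKM against 3.52 and 0 FPKM. Both overlapped (adjusted p = 0.331 and 0.283). Ccl6 was at 11.3 and 9.93 FPKM in Lats2 control and at 7.09 and 0.448 FPKM in Lats2 cKO (adjusted p = 0.163). Ccl4 was at 1.22 and 3.31 FPKM against 0.401 and 0 FPKM, and Ccl9 at 1.19 and 0.883 FPKM against 1.65 and 0.396 FPKM. Neither passed the test.

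Of the 6 classical receptors tested in Lats2 cKO none passed the test with limma, and Ccr7, Cxcr2 and Ccr1 were close to the threshold. Ccr7 was at 7.11 and 5.27 FPKM in Lats2 control and at 3.48 and 2.23 FPKM in Lats2 cKO (adjusted p = 0.0515). Cxcr2 was at 4.83 and 3.54 FPKM against 2.18 and 1.52 FPKM (adjusted p = 0.0523), and Ccr1 at 3.34 and 3.80 FPKM against 1.68 and 0.568 FPKM (adjusted p = 0.0532). The neutrophil markers summed to 3015 and 2064 FPKM in Lats2 control and to 928 and 728 FPKM in Lats2 cKO, 7 of 11 called and lower, and the B cell markers to 103 and 89.6 FPKM and to 28.3 and 20.9 FPKM, with all 6 tested called and lower. No neutrophil marker was at 0 in Lats2 control and up to 3 were in Lats2 cKO, and the part of these cells in the receptor values was not tested. Ccr2 was at 1.54 and 1.42 FPKM against 1.24 and 0.157 FPKM (adjusted p = 0.284). Cx3cr1 was at 1.61 and 0.854 FPKM against 1.42 and 0.322 FPKM, and Cxcr5 at 2.13 and 1.19 FPKM against 1.5 and 0.498 FPKM (adjusted p = 0.61 and 0.413). All 3 were lower in Lats2 cKO replicate 2 than in replicate 1.

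Of the members that reached 1 FPKM in at least 1 library without being tested, Ccl21a was at 0 and 0.386 FPKM in Lats2 control and at 3.05 and 0 FPKM in Lats2 cKO. Cxcl14 was at 1.32 and 1.29 FPKM against 0.436 and 0.110 FPKM. Ccl3 was at 0.787 and 1.98 FPKM against 0 in both. Ccr10 was at 0.699 and 0.779 FPKM against 1.38 and 0.931 FPKM, and Ccl25 at 0.527 and 0.630 FPKM against 0.794 and 1.13 FPKM. A further 13 members stayed above 0 but under 1 FPKM, at most 0.886 FPKM, and 18 were at 0.

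Set side by side, 30 of the 59 members were tested in at least 1 comparison and 18 in all 3, and 17 were called in at least 1. In every library that listed them, 9 were at 0: Ccl1, Ccl20, Ccl21b, Ccl21c, Ccl26, Ccl27b, Cxcl15 and the pseudogenes Ccl19-ps1 and Ccl19-ps3. The members called both between bmECs and mpECs and between Lats2 cKO and Lats2 control were Ackr1, Ackr3 and Cxcl16. Each had the opposite sign in them: Ackr1 had a log2 change of 2.40 in bmECs and -1.51 in Lats2 cKO, Cxcl16 of 1.29 and -1.08, and Ackr3 of -1.20 and 2.20. These comparisons share no library. The opposite sign was the rule among all genes: of 10471 genes tested in both comparisons 972 were called in both, and 94.5% of these had opposite signs, so the members' signs were those of most genes. The 6 sinusoidal markers moved beside them, with 5 higher in bmECs, where their sum was 1745 to 1985 FPKM against 484 to 755 FPKM in mpECs, and all 6 lower in Lats2 cKO, where it was 202 to 289 FPKM against 1184 to 1360.1 FPKM in Lats2 control. The part of the mix of vessel types in the members' values was not tested. Cxcl2 was called between bmECs and mpECs, where it was lower in bmECs, and in the libraries labelled ECKO, where it was higher, and no member was called both in those libraries and in Lats2 cKO.

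**Figure D5:**
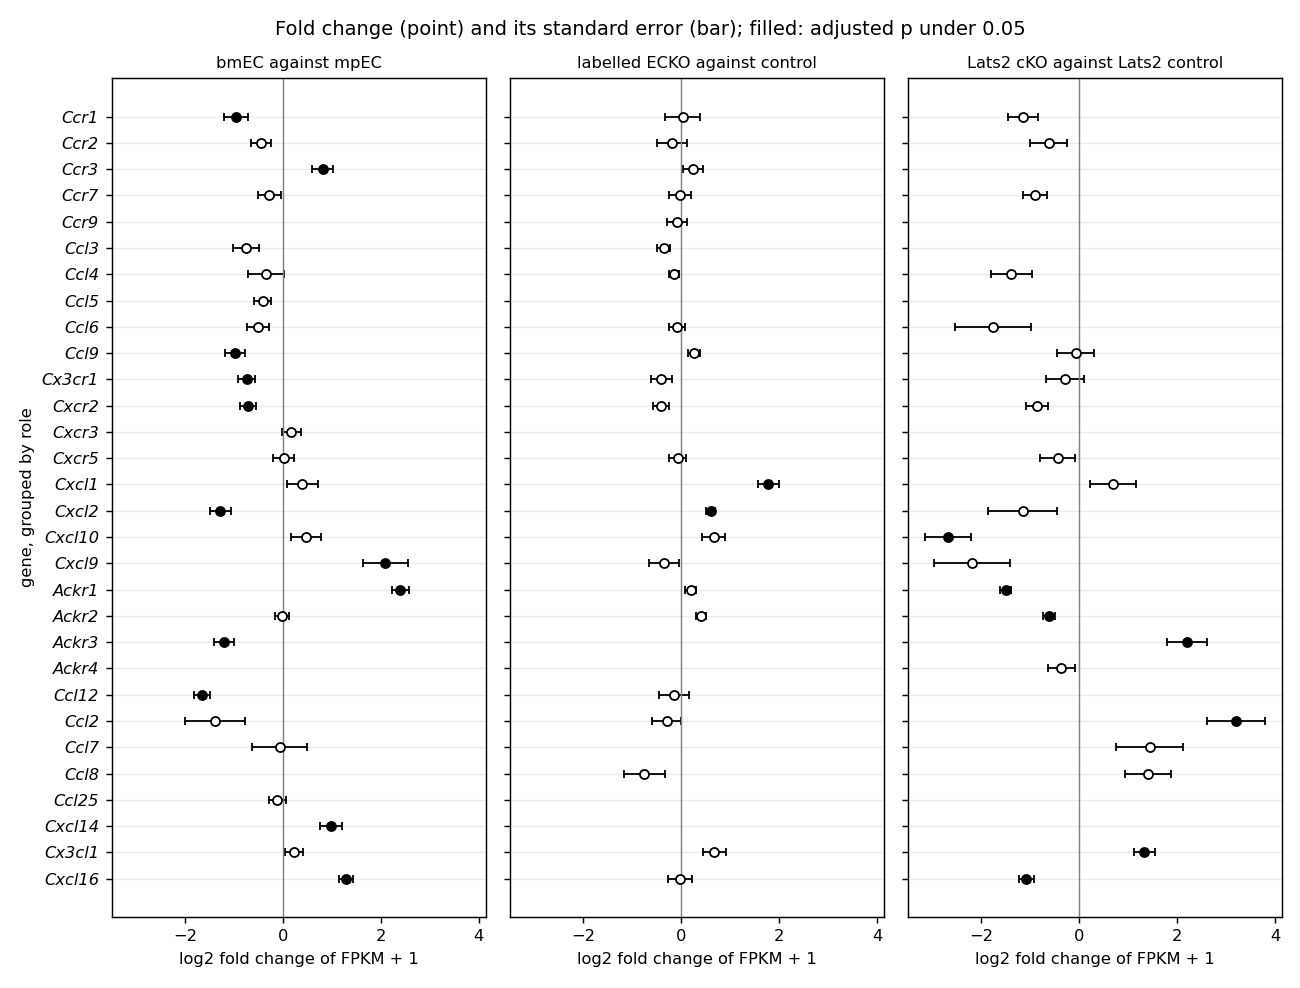
Log2 fold change of FPKM + 1 for the 30 members tested in at least 1 comparison, on 1 horizontal scale for the 3 panels, with the genes listed by role. Points are the fitted changes, bars their standard errors, and filled points passed an adjusted p-value under 0.05; Ackr1, Ackr3 and Cxcl16 are filled on opposite sides of 0 in the first and last panels.

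Ackr1 led the members in every library. The tables were scaled separately, and the cause of its differences between tables was not tested. It was at 1989.6 to 3006 FPKM in bmECs, 392 to 533 FPKM in mpECs, 438 and 439 FPKM in Lats2 control, 154 and 154 FPKM in Lats2 cKO and 68.8 to 91.0 FPKM in the ECKO and control libraries. The summed FPKM of the ligands was 94.4 to 175 in the mpEC and bmEC libraries, 143 to 178 in the ECKO and control libraries and 72.4 to 122 in the Lats2 libraries. That of the classical receptors, with Cxcr4 left aside, was 31 to 60.1, 49.8 to 60.2 and 6.60 to 22.7 FPKM.

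Signals from the receptors run through Gi proteins, receptor kinases, arrestins and RGS proteins, and 30 such genes were taken as a list. Between bmECs and mpECs 25 were tested, 2 higher and 5 lower in bmECs (28.0%, beside 23.5% of all genes), with a median log2 change of -0.23. Rgs2 and Rgs16, which switch Gi and Gq signals off, were at 35.3 to 43.6 and 2.21 to 4.58 FPKM in mpECs and at 13.1 to 21.6 and 0.581 to 1.27 FPKM in bmECs (adjusted p = 0.00348 and 0.0116). In the libraries labelled ECKO limma called 0 of 29, with a median log2 change of 0.02. In Lats2 cKO 2 of 25 were higher and 3 lower (20% of those tested, beside 21.8% of all genes), with a median of -0.19. Rgs16 was at 2.06 and 2.66 FPKM in Lats2 control and at 19.8 and 27.9 FPKM in Lats2 cKO (adjusted p = 0.00684), and the receptor kinase Grk5 at 4.38 and 4.89 FPKM against 10.2 and 12.2 FPKM (adjusted p = 0.0133). The leukocyte signalling genes Rac2, Vav1 and Prex1 were the 3 that fell, with Rac2 at 26.9 and 20.04 FPKM against 8.20 and 3.84 FPKM.

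Heparan sulfate holds chemokines at the vessel wall, and 21 of its core proteins and enzymes formed another list. Between bmECs and mpECs 17 were tested, 2 higher (Glce and Sdc4) and 2 lower (Ext1 and Sdc2) in bmECs (23.5%, beside 23.5% of all genes), with a median log2 change of -0.12. Sdc4, a core protein, was at 19.9, 12.7 and 11.4 FPKM in mpECs and at 23.2, 27.1 and 28.8 FPKM in bmECs (adjusted p = 0.0163). In the libraries labelled ECKO limma called 0 of 16, with a median of -0.06. In Lats2 cKO 3 of 17 were higher and none lower (17.6%, beside 21.8%), with a median of 0.15. The chain-building enzyme Ext1 was at 7.34 and 8.22 FPKM in Lats2 control and at 13.5 and 16.7 FPKM in Lats2 cKO (adjusted p = 0.0215), the core protein Gpc4 at 2.65 and 3.30 FPKM against 8.60 and 11.4 FPKM (adjusted p = 0.0126), and Sulf1, which trims sulfates from the chains, at 1.03 and 1.14 FPKM against 3.11 and 2.93 FPKM (adjusted p = 0.0297).

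Of the pair left aside by the rule, Cxcr4 was at 5.56 and 4.65 FPKM in Lats2 control and at 18.5 and 43.4 FPKM in Lats2 cKO (adjusted p = 0.0197), with Cxcl12 at 22.2 and 29.8 FPKM against 40.1 and 41.4 FPKM (adjusted p = 0.04997). Ackr3, which binds the same ligand, was higher in the same libraries. Cxcr4 was at 2.24, 1.94 and 2.79 FPKM in mpECs and at 1.34, 0.526 and 1.17 FPKM in bmECs (adjusted p = 0.0288). In the ECKO comparison it was above Ackr1, at 206, 235 and 177 FPKM in the controls and 261, 303 and 313 FPKM in the libraries labelled ECKO (adjusted p = 0.0785). Cxcl12 did not pass the test in either comparison (adjusted p = 0.654 and 0.147).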

How the data were processed

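RNA-seq libraries (TruSeq Stranded Total RNA, paired-end reads on a MiSeq) of sorted bone ECs were analysed from the FPKM values that the authors deposited. Per the submitters' processing notes and the methods, reads were aligned with TopHat to mm10 and counted with HTSeq 0.6.1. How counts became FPKM, and the strand setting, are not given in the sources used here. Groups follow the sample labels.

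From these values log2(FPKM + 1) was fitted with limma 3.58.1 (R 4.3.3; eBayes with a trend) in each table alone, over genes whose mean reached 1 FPKM, with Benjamini-Hochberg adjustment over all genes tested, and members were called at an adjusted p-value under 0.05. No set test was run. The members, gene lists and tests were chosen with earlier results of these data known. Every member that reached 1 FPKM in a library of a comparison was named there, except 1 gene that is not reported here.

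Reads were recovered from FPKM, gene length and the smallest steps of each library. Of low values, 62.4% to 70.0% came within 0.02 reads of a whole number, so they served only as an alternative and as a measure of depth. Positions are from GENCODE M21, promoters from RefSeq GRCm38.p6. The fit was tested on simulated data. Alternatives were the pseudocount, filter, scaling, trend, replicate block, voom on recovered reads, a stricter threshold and leaving out each library.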

Additional observations from a re-analysis of the deposited data

How the results depend on the processing

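The main counts of members called were 12 between bmECs and mpECs, 2 in the libraries labelled ECKO and 7 in Lats2 cKO. With a filter at 5 FPKM or an adjusted p under 0.01 with a log2 change over 0.5, the bmEC count was 6 and 5, and with no filter on low values it was 9. The ECKO count was 0 with no filter on low values and 0 with the stricter threshold, and 1 without the trend. The Lats2 count was 3 with no filter, 11 with voom on recovered reads and 1 with the stricter threshold. Leaving out 1 library gave 8 to 12, 0 to 3 and 0 to 10 members. The cause was not tested. Where limma called no member in the ECKO comparison, it called 1 of all genes: 2338 genes were at an unadjusted p under 0.05 with no filter, 2023 under the stricter threshold, and 1269 and 1444 without the library labelled ECKO replicate 2 or 3.

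With the replicate number as a block, 15, 1 and 10 members were called. Deviations of same-numbered libraries correlated at 0.307, 0.088 and 0.102 (mpEC and bmEC), -0.175, -0.123 and -0.155 (ECKO) and 0.065 and 0.065 (Lats2), so the numbers were not taken to pair the libraries.

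Voom scaled to library totals moved the median log2 change of all genes to -0.20, -0.06 and -0.13, and the share of calls that were higher from 55.2% to 25.8% (bmEC), from 67.6% to 57.3% (ECKO) and from 54.1% to 39.2% (Lats2).

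Of the values of named members under these alternatives, 933 kept direction and call, 70 lost the call, 22 gained it and 37 changed sign, none of them of a called member. With quantile scaling Ccl7 was at 0.039 in bmECs. With voom Cxcr5 was at -0.14 in bmECs, and Cxcl16 and Ccr1 at 0.020 and -0.13 in the libraries labelled ECKO. With 1 library left out, the log2 changes in bmECs ran from -0.18 to 0.090 for Ackr2, -0.27 to 0.019 for Ccl25, -0.64 to 0.15 for Ccl4, -0.34 to 0.33 for Ccl7, -0.022 to 0.32 for Cxcr3 and -0.16 to 0.16 for Cxcr5. In the libraries labelled ECKO they ran from -0.25 to 0.20 for Cxcl16, -0.26 to 0.033 for Ccl6, -0.47 to 0.30 for Ccr1, -0.20 to 0.086 for Ccr9, -0.47 to 0.12 for Ccl12, -0.70 to 0.023 for Ccl2, -0.031 to 0.40 for Ccr3, -0.28 to 0.17 for Ccr7, -0.21 to 0.10 for Cxcr5 and -0.61 to 0.047 for Ccr2. In Lats2 cKO they ran from -0.19 to 0.39 for Ccl9 and -0.55 to 0.14 for Cx3cr1.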
